A study of Mus musculus with 6 samples.

Results

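The genes described are 42 genes of DNA replication and of the supply of DNA building blocks, named in a list of genes with these known roles. All 42 were measured, among 19938 genes tested in all. They comprise the factors that mark and load replication origins, the replicative helicase, the polymerases and primase, the clamp and its loader with the proteins that bind and join strands, nucleotide synthesis enzymes, S-phase repair and checkpoint genes, the factors that copy DNA methylation, and the E-type cyclins.

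RNA levels were measured on Affymetrix arrays in cultured mouse BMSCs (bone marrow stromal cells), which grow attached to the dish and can turn into bone-depositing osteoblasts or into fat cells. The cells of 2 groups were compared: KO188 cells came from mice without the microRNA miR-188 (3 arrays), and WT cells came from wild-type mice (3 arrays). Mice of both groups were 6 months old and had a C57BL/6 background. Cells of both groups were kept in bone-inducing medium with 10% fetal calf serum, 100 nM dexamethasone, 10 mM beta-glycerophosphate and 0.05 mM ascorbic acid 2-phosphate. The labels give neither the deleted bases nor the days in this medium, and they do not tie an array to a mouse, so the p-values measure the spread between these arrays.

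Before a cell divides, the origin recognition complex and its partners load the Mcm helicase ring onto DNA while cyclin-dependent kinase activity is low, and kinases then fire these origins in S phase. The helicase unwinds the strands, polymerase alpha with primase starts each new strand, polymerases delta and epsilon extend it on the clamp Pcna, and ribonucleotide reductase makes the deoxynucleotides. Many of these genes are transcribed together late in the gap before S phase under the E2F transcription factors, and they are silenced as cells such as maturing osteoblasts leave the cell cycle.

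Levels below are the deposited log2 values, on which a difference of 1 is a doubling, and a change is the KO188 mean minus the WT mean. The array medians lay between 7.43 and 7.50, and arrays of the same group correlated across genes at 0.9988 to 0.9993, against 0.9909 to 0.9912 between groups. The probe set for Mir188 itself, the targeted gene, had 7.03, 7.13 and 7.09 in the KO188 arrays and 7.15, 7.13 and 7.16 in the WT arrays, and it did not pass the test (limma adjusted p = 0.24). The labels do not say whether its probes lie in the deleted part, so these values are no check of the genotype. Olfactory and vomeronasal receptor genes, 1194 genes that stromal cells should not use, served as a guide to the level of silent genes, and 95% of them lay at or below 6.72. All 12 stromal markers tested were above that level, as was Col1a1, the main collagen of bone, at 13.11 in KO188 and 12.90 in WT cells. Of 45 tested markers of macrophages, granulocytes, lymphocytes, erythroid and endothelial cells, 25 were at or below it.

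Most of the replication genes were lower in KO188 cells. By limma with Benjamini-Hochberg adjustment at 0.05 over every tested gene, 26 of the 42 fell, 2 rose and 14 did not pass, while 16.5% of all tested genes fell and 13.3% rose, or 29.8% in either direction. The genes that fell were lower by 6.75% to 31.7% on the linear scale, with a median of 14.4%. The median change of the 42 genes was -0.16, which is 10.7% lower, against -0.0053 over all tested genes. The 2 that rose were Cdt1, a helicase loading factor, and Ccne1, which encodes cyclin E1.

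The separation of the arrays gave a like picture. In 33 of the 42 genes all 3 KO188 arrays were below all 3 WT arrays, which held for 22.7% of all tested genes. In 3 genes all KO188 arrays were above all WT arrays, which held for 18.8% of all tested genes, and in 6 the groups overlapped. Among the 9970 tested genes in the upper 50% of levels, 3937 had all KO188 arrays below all WT arrays and 2829 had them above. Of the 14 genes that did not pass, 7 had every KO188 array below every WT array, and 11 had a change below 0. A change below 0 was seen in 10407 of the 19938 tested genes, and in 5558 of the 9970 in the upper 50% of levels. These shares were not taken among all genes that did not pass.

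The replication genes are among the brighter genes on the arrays, and brighter genes passed the test more often. Of the 42, 41 were in the upper 50% of levels. With every gene tested, 30.5% of all genes at such levels fell and 21.5% rose. With the dimmer genes left out, 29 of those 41 fell, against 36.3% of the 9969 genes then tested, and 3 rose, against 26.0%. Centring each array on its median, which moved the median change of all genes to -0.06, gave 34 genes lower and 1 higher, against 25.7% of all tested genes lower under that scaling. The share of higher genes among all calls was then 27.9%, against 44.5% in the values as deposited.

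Within the KO188 group the arrays were not equally low. The median difference of the 42 genes from their WT means was -0.13, -0.15 and -0.19 in KO188 replicates 1, 2 and 3, and -0.0072, -0.0081 and 0.015 in the WT replicates. KO188 replicate 1 was the highest of its group for 19 of the 26 genes that fell. The median SD of the 42 genes was 0.0441 in KO188 and 0.0212 in WT arrays, against 0.0484 and 0.0394 over all tested genes. Fewer dividing cells and less of each RNA per cell cannot be told apart in such bulk samples.

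**Figure D1:**
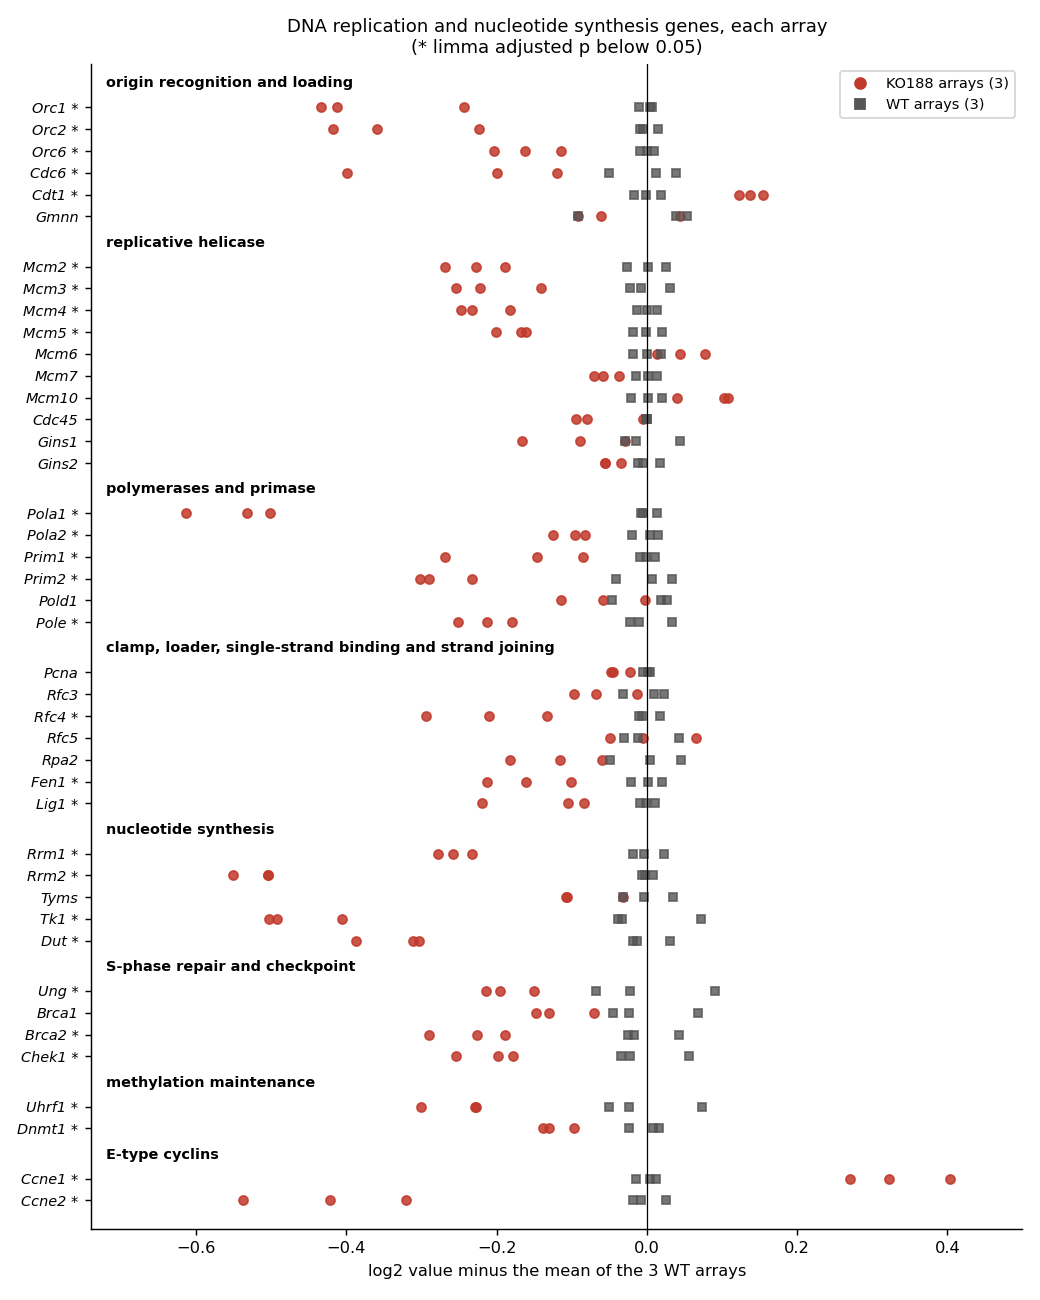
Each of the 42 genes in each array, as the log2 value minus the mean of the 3 WT arrays, with KO188 arrays as circles, WT arrays as squares and an asterisk for an adjusted p below 0.05. In 33 genes the 3 KO188 circles lie left of all WT squares, and those of Pola1, Rrm2, Tk1 and Ccne2 lie farthest left.

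**Figure D2:**
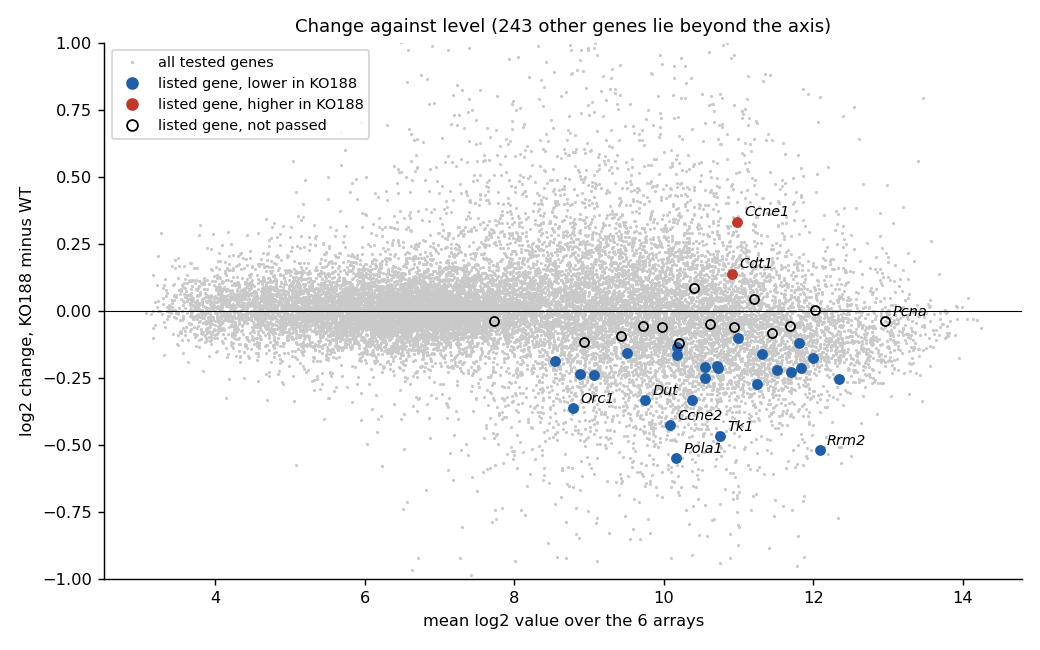
Change in log2 units (KO188 minus WT, vertical axis) against the mean log2 value over the 6 arrays (horizontal axis), for all tested genes in grey and the 42 genes in colour. The vertical axis ends at 1 in each direction, beyond which 243 other genes lie, and the 42 genes sit at levels from 7.72 to 12.96, mostly below the zero line.

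Promoter sequences are shown for 6 genes, in order to set the letters that E2F proteins read beside the measured changes: Pola1 and Rrm2, the largest falls, Cdt1 and Ccne1, the genes that rose, and Mcm5 and Mcm6, a helicase pair of which only Mcm5 fell. The pair was added after the values were seen. Each sequence is RefSeq's on GRCm38.p6 and runs 5′ to 3′ in the direction of the gene, from 250 bases before the annotated start to 30 bases after it. The windows are chrX:93632126-93632405 (minus strand) for Pola1, chr12:24708004-24708283 (plus strand) for Rrm2, chr8:75109259-75109538 (plus strand) for Mcm5, chr1:128359676-128359955 (minus strand) for Mcm6, chr8:122567765-122568044 (plus strand) for Cdt1 and chr7:38107461-38107740 (minus strand) for Ccne1. Capitals mark the E2F core, searched as TTCCCGC or TTCGCGC and likewise as TTGCCGC or TTGGCGC, on both strands with overlapping matches counted.
Pola1: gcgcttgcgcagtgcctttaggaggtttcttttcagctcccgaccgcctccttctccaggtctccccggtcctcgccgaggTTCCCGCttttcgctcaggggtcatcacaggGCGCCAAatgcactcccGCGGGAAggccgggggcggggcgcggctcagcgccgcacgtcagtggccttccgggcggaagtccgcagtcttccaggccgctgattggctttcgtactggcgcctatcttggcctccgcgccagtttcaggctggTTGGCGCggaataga
Rrm2: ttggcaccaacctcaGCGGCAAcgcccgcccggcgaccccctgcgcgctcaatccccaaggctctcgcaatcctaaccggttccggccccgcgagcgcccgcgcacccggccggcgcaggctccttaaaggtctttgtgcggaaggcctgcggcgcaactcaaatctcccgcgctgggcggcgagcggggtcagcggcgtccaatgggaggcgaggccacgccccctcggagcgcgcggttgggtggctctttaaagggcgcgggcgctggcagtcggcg
Mcm5: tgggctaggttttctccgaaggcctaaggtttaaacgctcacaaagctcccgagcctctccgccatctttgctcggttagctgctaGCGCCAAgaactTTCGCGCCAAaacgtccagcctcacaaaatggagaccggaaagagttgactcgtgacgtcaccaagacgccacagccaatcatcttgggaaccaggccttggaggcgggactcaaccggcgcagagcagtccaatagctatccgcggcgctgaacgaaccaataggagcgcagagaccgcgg
Mcm6: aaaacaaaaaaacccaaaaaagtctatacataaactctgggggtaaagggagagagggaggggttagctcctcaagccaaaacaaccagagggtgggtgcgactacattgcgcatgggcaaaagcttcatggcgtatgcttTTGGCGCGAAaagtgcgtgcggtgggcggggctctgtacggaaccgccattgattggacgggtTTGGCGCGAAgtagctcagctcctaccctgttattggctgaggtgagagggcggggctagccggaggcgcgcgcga
Cdt1: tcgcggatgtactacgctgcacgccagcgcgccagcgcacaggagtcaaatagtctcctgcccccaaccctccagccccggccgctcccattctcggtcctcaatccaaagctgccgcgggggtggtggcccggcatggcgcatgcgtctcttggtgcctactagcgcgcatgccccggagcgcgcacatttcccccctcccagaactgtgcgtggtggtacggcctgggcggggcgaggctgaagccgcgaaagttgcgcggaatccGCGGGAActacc
Ccne1: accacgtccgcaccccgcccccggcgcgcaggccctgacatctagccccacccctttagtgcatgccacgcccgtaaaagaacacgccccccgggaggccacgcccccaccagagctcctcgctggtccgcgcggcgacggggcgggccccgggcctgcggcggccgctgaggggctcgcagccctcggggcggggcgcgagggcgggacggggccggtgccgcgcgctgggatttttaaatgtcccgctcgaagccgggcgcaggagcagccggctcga

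Over the whole window, which reaches 50 bases after the start, Pola1 held 4 matches, Rrm2 held 1, Mcm5 held 3, Mcm6 held 5, Cdt1 held 2 and Ccne1 held 0. Runs of capitals longer than 7 bases are overlapping matches, as in Mcm5 and at a pair of places in Mcm6. The changes of these genes were -0.55 for Pola1, -0.52 for Rrm2, -0.18 for Mcm5, 0.04 for Mcm6, 0.14 for Cdt1 and 0.33 for Ccne1. Of these 6 windows, the one with the most matches belonged to Mcm6, which did not pass the test, and that of Cdt1, which rose, held matches as well.

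RefSeq windows were given for 35 of the 42 genes, with several windows for 6 of them. Gmnn, Mcm4, Gins1, Gins2, Prim2, Pole and Ccne2 had none. An E2F core was found in 22 of the 35 genes (62.9%), against 14.7% of the 15614 tested genes with a window and 20.3% of the 8067 of these in the upper 50% of levels. Of the 43 matches, 25 began before the start and 18 after it, and 40 lay between 170 bases before and 50 after. The windows end at 50 bases after the start, and positions of matches in other genes were not compared. The 5 letters CCAAT, read by the factor NF-Y, were found on either strand in 20 of the 35 genes (57.1%), against 41.7% of tested genes and 43.3% of those in the upper 50% of levels. The CHR element TTTGAA, read by the DREAM complex, was found in 4 (11.4%), against 17.3% of tested genes and 14.0% of those in the upper 50% of levels.

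Among the replication genes the E2F core was not limited to those that fell. It was present in 15 of the 22 genes that fell and had a window (68.2%), and in 6 of the 11 that did not pass (54.5%). Among all tested genes it was present in 21.5% of those that fell and 12.7% of those that did not pass. Brighter genes passed more often, and 20.3% of genes in the upper 50% of levels held the core, whatever their call. Genes that fell and genes that did not pass were not matched for level. These shares are descriptions of short words in fixed windows, and windows of like base composition were not compared.

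**Figure D3:**
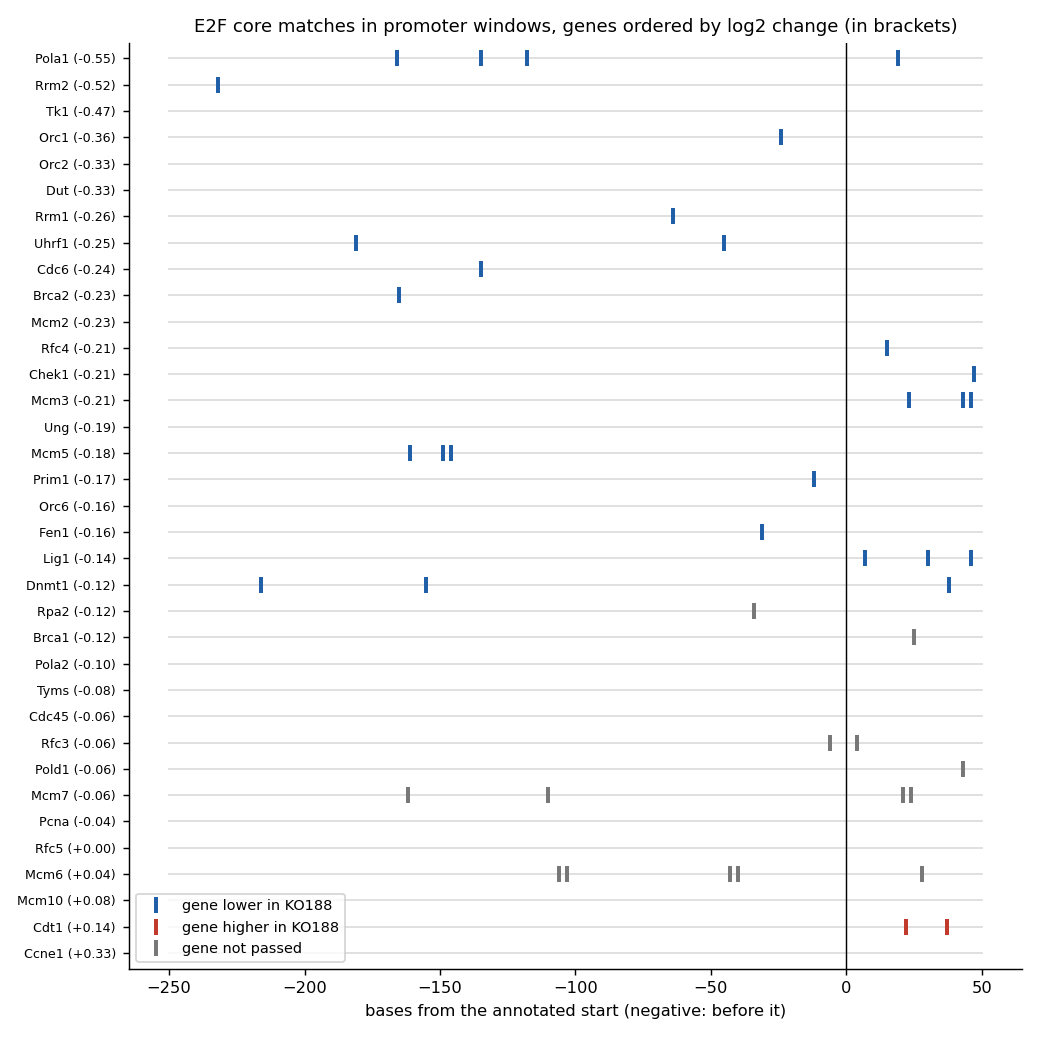
Positions of E2F core matches, as vertical ticks, in the windows of the 35 genes with a RefSeq promoter, ordered by their log2 change (in brackets), with the annotated start at 0 and distances in bases. Of the 43 matches, 40 lie between 170 bases before the start and 50 after it, where the windows end. They lie in genes that fell, rose or did not pass. Where a gene has several windows, as Mcm7, Lig1, Uhrf1, Fen1 and Dnmt1 do, their ticks share the gene's line. Each tick is then placed from the start of its own window.

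At the origins, 4 of 6 genes fell and 1 rose, with a median change of -0.20. That was 66.7% falling and 16.7% rising, against 16.5% and 13.3% of all tested genes and 30.5% and 21.5% of the brighter 50%. Orc1, the subunit of the origin recognition complex that comes and goes with the cell cycle, had levels of 8.73, 8.56 and 8.54 in the KO188 arrays and 8.96, 8.97 and 8.98 in the WT arrays. Orc2, a core subunit of the same complex, had 10.32, 10.13 and 10.19 in KO188 and 10.54, 10.54 and 10.56 in WT arrays. The groups were apart for both, with the WT arrays close together and KO188 replicate 1 the highest of its group. Orc1 was 8.61 ± 0.10 in KO188 and 8.97 ± 0.0095 in WT cells (SD, n = 3 each), a change of -0.36 (SE 0.052, 22.3% lower, limma adjusted p = 0.0025). Orc2 fell by 0.33 (20.7% lower, limma adjusted p = 0.0031), and Orc6, the smallest subunit, by 0.16 (10.5% lower, limma adjusted p = 0.0081).

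The loading factors that work with this complex went in opposite directions. Cdc6, which joins the origin complex and helps to load the helicase, had 8.98, 9.06 and 8.78 in KO188 arrays and 9.13, 9.19 and 9.22 in WT arrays. Cdt1, its partner in loading, had 10.99, 10.97 and 11.00 in KO188 arrays and 10.87, 10.85 and 10.83 in WT arrays. Every Cdc6 value was lower in KO188 and every Cdt1 value was higher. Cdc6 fell by 0.24 (SE 0.072, limma adjusted p = 0.048), a call lost when KO188 replicate 1 or any WT replicate was left out, with adjusted p up to 0.15 over the alternatives. Cdt1 rose by 0.14 (SE 0.025, 95% interval 0.08 to 0.20, 10.0% higher, limma adjusted p = 0.0066), although with each array centred on its median the change was 0.09 and did not pass (limma adjusted p = 0.057). Gmnn, which encodes geminin, the inhibitor of Cdt1, changed by -0.04 with a 95% interval of -0.17 to 0.09.

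Calls within the helicase were divided, and how many fell depended on the scaling. Of the 10 helicase genes 4 fell and none rose at the adjusted threshold in limma, with 1 higher at an unadjusted p under 0.05 (Mcm10), and the median change was -0.08. The share that fell was 40%, against 16.5% of all tested genes and 30.5% of those in the upper 50% of levels. Mcm2 had 11.58, 11.62 and 11.54 in KO188 arrays and 11.81, 11.79 and 11.84 in WT arrays. Mcm4 had 11.44, 11.38 and 11.39 in KO188 arrays and 11.64, 11.63 and 11.61 in WT arrays. Mcm3 had 10.67, 10.59 and 10.56 in KO188 arrays and 10.79, 10.80 and 10.84 in WT arrays. All 3 encode subunits of the ring, and the groups were apart in each. The falls were 0.23 for Mcm2 (14.7% lower, limma adjusted p = 0.0020), 0.22 for Mcm4 (14.2% lower, limma adjusted p = 0.0014) and 0.21 for Mcm3 (13.3% lower, limma adjusted p = 0.0061). Mcm5, whose promoter is printed above, fell by 0.18 (11.5% lower, limma adjusted p = 0.0028).

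Mcm6 and Mcm7, subunits of the same ring, did not pass on the values as deposited. Mcm6 had 11.26, 11.20 and 11.23 in KO188 arrays and 11.19, 11.17 and 11.20 in WT arrays, so the groups overlapped. Its change was 0.04 with a 95% interval of -0.02 to 0.11, which lies above the changes of the ring subunits that fell, and it was -0.0072 with arrays centred on their medians. Mcm7 changed by -0.06 (95% interval -0.11 to 0.0039, limma adjusted p = 0.16), and it was called lower with arrays centred on their medians (-0.11, limma adjusted p = 0.020) and with a trend in eBayes (limma adjusted p = 0.041). Cdc45, Gins1 and Gins2, which encode parts of the active helicase assembled on the ring, changed by -0.06, -0.09 and -0.05, with limma adjusted p of 0.22, 0.16 and 0.20. All 3 were called lower with centred arrays, at limma adjusted p of 0.044 for Cdc45, 0.034 for Gins1 and 0.025 for Gins2. Mcm10, which helps this assembly to start, changed by 0.08 (limma adjusted p = 0.087), with every KO188 array above every WT array. The differences between these subunits were not tested against each other.

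Of the polymerase and primase genes 5 of 6 fell, with a median change of -0.19. Falls made up 83.3% of this group, against 16.5% of all tested genes and 30.5% of those in the upper 50% of levels. Pola1, the catalytic subunit of polymerase alpha, had 9.94, 9.91 and 9.82 in KO188 arrays and 10.45, 10.43 and 10.43 in WT arrays. It showed the largest fall of the 42 genes, to 9.89 ± 0.058 in KO188 against 10.44 ± 0.012 in WT cells (SD, n = 3 each), a change of -0.55 (SE 0.035, 31.7% lower, limma adjusted p = 7.3e-05). Prim2, the large primase subunit, had 11.15, 11.08 and 11.10 in KO188 arrays and 11.35, 11.39 and 11.42 in WT arrays, and fell by 0.28 (17.4% lower, limma adjusted p = 0.0011). Pole, the catalytic subunit of polymerase epsilon on the leading strand, had 10.62, 10.66 and 10.58 in KO188 arrays and 10.83, 10.81 and 10.87 in WT arrays, and fell by 0.22 (13.8% lower, limma adjusted p = 0.0025). In all 3 genes the groups were apart by more than the spread within either.

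The other genes of the polymerase group changed less. Pola2, the second subunit of polymerase alpha, fell by 0.10 (6.75% lower, limma adjusted p = 0.027), a call lost without KO188 replicate 2, WT replicate 1 or WT replicate 3, with adjusted p up to 0.090. Prim1, the catalytic primase subunit, fell by 0.17 (10.9% lower, limma adjusted p = 0.042), and its call was lost without any 1 replicate other than KO188 replicate 1, with adjusted p up to 0.12. Pold1, the catalytic subunit of polymerase delta, changed by -0.06 (95% interval -0.15 to 0.03, limma adjusted p = 0.33), with overlapping groups.

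Of the 7 genes for the clamp, its loader, single-strand binding and strand joining, 3 fell and none rose in limma, also at an unadjusted p, with a median change of -0.12. The share that fell was 42.9%, against 16.5% of all tested genes and 30.5% of those in the upper 50% of levels. Rfc4, a subunit of the loader that places the clamp, had 11.82, 11.74 and 11.66 in KO188 arrays and 11.97, 11.94 and 11.94 in WT arrays. Fen1, the nuclease that trims the flaps of lagging-strand fragments, had 9.49, 9.38 and 9.43 in KO188 arrays and 9.59, 9.57 and 9.61 in WT arrays. Lig1, the ligase that seals these fragments, had 10.02, 10.16 and 10.14 in KO188 arrays and 10.23, 10.25 and 10.24 in WT arrays. All 3 were lower in every KO188 array, by 0.21 for Rfc4 (13.7% lower, limma adjusted p = 0.011), 0.16 for Fen1 (10.4% lower, limma adjusted p = 0.015) and 0.14 for Lig1 (8.99% lower, limma adjusted p = 0.046). The call of Fen1 was lost without KO188 replicate 3, WT replicate 1 or WT replicate 3 (adjusted p up to 0.057). The call of Lig1 was lost without KO188 replicate 3 or any WT replicate, and with quantile normalization (adjusted p up to 0.13).

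Pcna, the clamp itself and the brightest of the 42 genes, changed by -0.04 (95% interval -0.10 to 0.02, limma adjusted p = 0.29). Its level was 12.93, 12.96 and 12.94 in KO188 arrays and 12.98 in each WT array, so the groups were apart by a small step. Rfc3 and Rfc5, other loader subunits, had overlapping groups, with changes of -0.06 for Rfc3 and 0.0034 for Rfc5, and the change of Rfc5 was below 0 under 4 of 14 alternatives. Rpa2, a subunit of the single-strand binding protein, changed by -0.12 (limma adjusted p = 0.079), with the groups apart. Pcna and Rpa2 were called lower with centred arrays, at limma adjusted p of 0.029 for Pcna and 0.019 for Rpa2.

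The nucleotide synthesis enzymes had the lowest median of the 8 groups of genes, -0.33, and 4 of 5 fell. These falls were 80% of the group, against 16.5% of all tested genes and 30.5% of those in the upper 50% of levels. Rrm2, the regulated subunit of ribonucleotide reductase, had 11.84, 11.80 and 11.84 in KO188 arrays and 12.36, 12.35 and 12.34 in WT arrays. Tk1, the thymidine kinase that recycles thymidine in dividing cells, had 10.58, 10.49 and 10.48 in KO188 arrays and 10.95, 10.95 and 11.06 in WT arrays. Dut, which removes dUTP and supplies the precursor of thymidylate, had 9.61, 9.61 and 9.53 in KO188 arrays and 9.95, 9.90 and 9.90 in WT arrays. In each of the 3 the gap between the groups was wider than the range of either group. Rrm2 was 11.83 ± 0.027 in KO188 and 12.35 ± 0.0077 in WT cells (SD, n = 3 each), a change of -0.52 (SE 0.026, 30.3% lower, limma adjusted p = 2.5e-05). Tk1 fell by 0.47 (SE 0.044, 27.7% lower, limma adjusted p = 0.00037) and Dut by 0.33 (SE 0.033, 20.7% lower, limma adjusted p = 0.00050).

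Rrm1, the large subunit of ribonucleotide reductase, had 12.24, 12.19 and 12.21 in KO188 arrays and 12.49, 12.47 and 12.45 in WT arrays. It fell by 0.26 (16.3% lower, limma adjusted p = 0.00059). Tyms, thymidylate synthase, changed by -0.08 (95% interval -0.16 to -0.0014, limma adjusted p = 0.13), with every KO188 array below every WT array. It was called lower with centred arrays (-0.13, limma adjusted p = 0.031) and with the dimmer genes left out (limma adjusted p = 0.047).

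Of the S-phase repair and checkpoint genes 3 of 4 fell, with a median change of -0.20. Falls made up 75% of this group, against 16.5% of all tested genes and 30.5% of those in the upper 50% of levels. Brca2, which acts in the repair of broken or stalled forks, had 8.80, 8.76 and 8.70 in KO188 arrays and 8.96, 8.97 and 9.03 in WT arrays, and fell by 0.23 (15.0% lower, limma adjusted p = 0.0034). Chek1, the checkpoint kinase that holds back division when forks stall, had 10.48, 10.46 and 10.40 in KO188 arrays and 10.64, 10.62 and 10.71 in WT arrays, and fell by 0.21 (13.6% lower, limma adjusted p = 0.0053). Ung, the glycosylase that removes uracil from DNA, had 8.45, 8.49 and 8.43 in KO188 arrays and 8.57, 8.62 and 8.73 in WT arrays, and fell by 0.19 (12.1% lower, limma adjusted p = 0.023). The groups were apart for all 3, and the call of Ung was lost without KO188 replicate 1, KO188 replicate 3 or WT replicate 2 (adjusted p up to 0.080). Brca1, a partner of Brca2 in repair, changed by -0.12 (limma adjusted p = 0.076), and was called lower with centred arrays (limma adjusted p = 0.011).

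Both genes that copy DNA methylation onto the new strand fell, as did 16.5% of all tested genes and 30.5% of those in the upper 50% of levels. Uhrf1, which finds the methylated parent strand, had 10.46, 10.38 and 10.46 in KO188 arrays and 10.63, 10.66 and 10.76 in WT arrays. Dnmt1, the methyltransferase that Uhrf1 brings in, had 11.75, 11.78 and 11.74 in KO188 arrays and 11.85, 11.88 and 11.89 in WT arrays. No array of either group overlapped the other. Uhrf1 fell by 0.25 (16.0% lower, limma adjusted p = 0.0044) and Dnmt1 by 0.12 (8.10% lower, limma adjusted p = 0.014), of which Dnmt1 did not pass with quantile normalization (limma adjusted p up to 0.068 over the alternatives).

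The cyclins E1 and E2, which activate the kinase Cdk2 at the entry to S phase, went in opposite directions. Ccne1 had 11.22, 11.08 and 11.14 in KO188 arrays and 10.82, 10.82 and 10.80 in WT arrays. Ccne2 had 9.97, 9.76 and 9.87 in KO188 arrays and 10.32, 10.28 and 10.29 in WT arrays. Every KO188 array was above every WT array for Ccne1 and below every WT array for Ccne2. Ccne1 rose by 0.33 (SE 0.038, 25.9% higher, limma adjusted p = 0.00095) and Ccne2 fell by 0.43 (SE 0.055, 25.6% lower, limma adjusted p = 0.0015), and both calls held under every alternative tried.

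Most further replication factors were lower as well. Of 43 further replication factors 26 fell and none rose in limma, although 2 were higher at an unadjusted p under 0.05 and 1 or 2 rose under some alternatives, and the median change was -0.14. The share that fell was 60.5%, against 16.5% of all tested genes and 30.5% of those in the upper 50% of levels. Tipin, which steadies stalled forks, fell by 0.48 (28.3% lower, limma adjusted p = 0.00013). Pole2, the second subunit of polymerase epsilon, fell by 0.42 (25.2% lower, limma adjusted p = 9.0e-05). Asf1b, a histone chaperone that serves new DNA, fell by 0.35 (21.5% lower, limma adjusted p = 0.00012).

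Of 29 further nucleotide synthesis genes 18 fell and 2 rose, with a median of -0.16. That was 62.1% falling and 6.90% rising, against 16.5% and 13.3% of all tested genes and 30.5% and 21.5% of the brighter 50%. Cad, which starts pyrimidine synthesis, had 10.10, 10.14 and 10.05 in KO188 arrays and 10.65, 10.62 and 10.68 in WT arrays, and fell by 0.55 (31.9% lower, limma adjusted p = 5.5e-05). Umps, which completes that route to UMP, fell by 0.40 (24.2% lower, limma adjusted p = 0.00036), and Gart, an enzyme of purine synthesis, by 0.32 (19.7% lower, limma adjusted p = 0.00022). The 2 genes that rose were Samhd1 and Dguok. Samhd1, the enzyme that breaks deoxynucleotides down, had 12.92, 12.93 and 12.92 in KO188 arrays and 12.16, 12.13 and 12.21 in WT arrays. It rose by 0.76 (SE 0.029, 69.2% higher, limma adjusted p = 8.1e-06), a larger change than that of any of the 42 genes. Dguok, the mitochondrial deoxyguanosine kinase, rose by 0.20 (15.1% higher, limma adjusted p = 0.0019).

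Of 26 further repair and checkpoint genes tested, 10 fell and 3 rose, with a median of -0.05. The share that fell was 38.5%, against 16.5% of all tested genes and 30.5% of those in the upper 50% of levels. The share that rose was 11.5%, against 13.3% and 21.5%. Atr, the kinase that responds to stalled forks and activates Chek1, fell by 0.34 (21.1% lower, limma adjusted p = 0.0012), while Atm, the related kinase that responds to double-strand breaks, rose by 0.65 (56.5% higher, limma adjusted p = 5.3e-05). Atm had 10.24, 10.29 and 10.24 in KO188 arrays and 9.55, 9.60 and 9.67 in WT arrays, with a wide gap between the groups. Fancb, of the pathway that repairs crosslinks, fell by 0.46 (limma adjusted p = 0.00094) and Neil3, a glycosylase for damaged bases, by 0.39 (limma adjusted p = 0.00061). Wee1, the kinase that restrains entry into mitosis, rose by 0.19 (limma adjusted p = 0.0021) and Smug1, another uracil glycosylase, by 0.13 (limma adjusted p = 0.030).

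Among 7 tested S-phase kinase genes and inhibitors, 4 fell and 1 rose. The share that fell was 57.1%, against 16.5% of all tested genes and 30.5% of those in the upper 50% of levels. The share that rose was 14.3%, against 13.3% and 21.5%. Cks1b, which helps the ligase subunit Skp2 to mark the inhibitor of Cdk2 for destruction, had 12.00, 11.94 and 11.91 in KO188 arrays and 12.74, 12.72 and 12.70 in WT arrays. Cdkn1b, the gene for that inhibitor, had 11.40, 11.37 and 11.35 in KO188 arrays and 11.07, 11.11 and 11.06 in WT arrays. The groups were apart in both, in opposite directions. Cks1b fell by 0.77 (41.5% lower, limma adjusted p = 1.1e-05) and Cdkn1b rose by 0.29 (22.6% higher, limma adjusted p = 0.00039). Ccna2, cyclin A2 of S phase, fell by 0.23 (15.0% lower, limma adjusted p = 0.0018) and Skp2 by 0.12 (7.80% lower, limma adjusted p = 0.016). The count of genes that fell was 2 without WT replicate 1 and 2 without WT replicate 2.

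**Figure D4:**
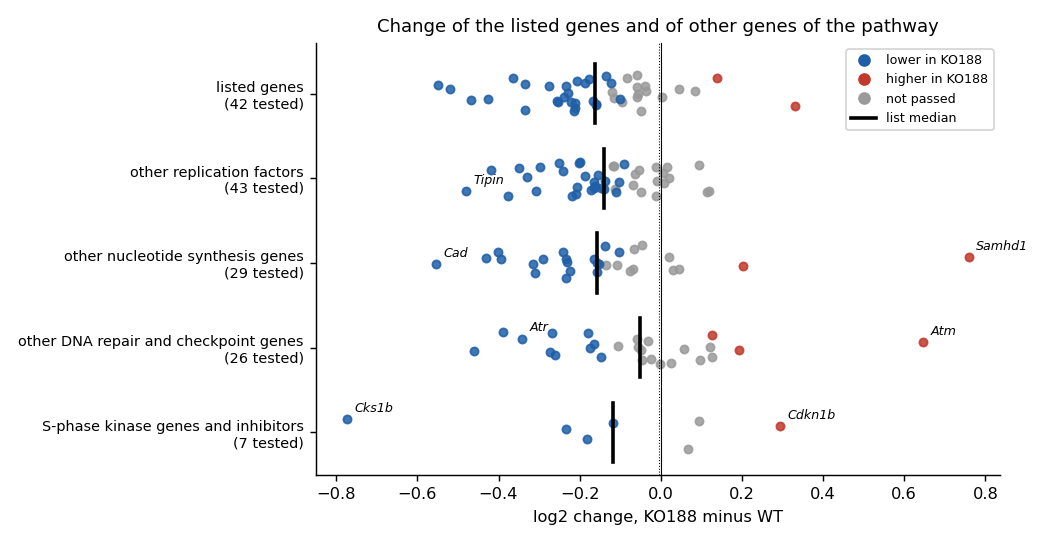
Change in log2 units (KO188 minus WT) of each gene in the 42 and in the 4 lists of other pathway genes, coloured by whether it fell, rose or did not pass, with a bar at each list's median and a dotted line at the median of all tested genes. The medians are -0.16, -0.14, -0.16, -0.05 and -0.12 from the first list to the last, and Samhd1, Atm and Cdkn1b stand to the right.

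Markers of other cells gave few calls. Of the 45 markers of other cell types, 2 rose and none fell in limma, while 13.3% of all tested genes rose and 16.5% fell. At an unadjusted p under 0.05, 3 more were lower and Cd68, a macrophage marker, was higher by 0.15 (limma adjusted p = 0.086). The median change of the 45 was -0.01. Since 25 of them were at or below the guide level of silent genes, a fall in those could hardly be seen. Mertk, a receptor with which macrophages take up dying cells, rose by 0.79 (8.72 in KO188 and 7.94 in WT cells, limma adjusted p = 1.5e-05), and Kdr, a receptor of endothelial cells, by 0.24 to 6.63 in KO188 cells, against 6.40 in WT cells (limma adjusted p = 0.021), below the guide level of silent genes in both groups. The mean level of the 10 macrophage markers was 6.89 to 6.95 over the KO188 arrays and 6.86 to 6.90 over the WT arrays, and that of the 10 endothelial markers was 6.93 to 6.99 over the KO188 arrays and 6.97 to 6.98 over the WT arrays. The 12 stromal markers averaged 11.18 to 11.22 in KO188 and 11.18 to 11.21 in WT arrays, with 5 higher and 3 lower. That was 41.7% higher and 25% lower, against 13.3% and 16.5% of all tested genes and 21.5% and 30.5% of the brighter 50%. The like averages hold changes in opposite directions. Pdgfra rose by 0.87, Vcam1 by 0.27, Col1a1 by 0.20, Pdgfrb by 0.15 and Col1a2 by 0.14. Nt5e fell by 0.85, Cd44 by 0.33 and Itgb1 by 0.27. The part of these markers in the replication gene values was not tested.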

How the data were processed

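RNA of 6 BMSC cultures, 3 KO188 and 3 WT, was measured on Affymetrix arrays. The values were deposited as log2 values per probe set, and RMA, Partek and Affymetrix Expression Console are named, without versions, in the submitters' processing notes. RMA draws small signals together, so folds are on its compressed scale. Of 35556 probe sets, 21789 carry 1 gene symbol and 1621 several in the platform annotation, and 12146 are unlisted there. Of those with 1 symbol, 21698 matched RefSeq GRCm38.p6. Each of 19938 genes was represented by its brightest probe set with 1 symbol.

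KO188 was compared with WT in R 4.3.3 with the functions lmFit and eBayes of limma 3.58.1 (Benjamini-Hochberg over all genes, threshold 0.05), and the fit was tested on simulated data. Promoter words were counted in Python 3.11.15. The number of arrays limits the precision. Array values were given for the 3 called genes of each functional group with the largest change and for genes called higher. Of each other list the 3 called genes with the lowest p in each direction were named. Mcm5 and Mcm6 promoters and other members' values were added. Members and lists were chosen with earlier results of these data known. Alternatives were scaling, a trend, a filter on dim genes, the mean of probe sets, a replicate block, leaving out each array and, added later, leaving out tied genes.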

Additional observations from a re-analysis of the deposited data

How the results depend on the processing

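Of the 26 replication genes that fell, 19 kept direction and call under each alternative they entered (14, or 13 for Rrm2, which has tied values), as did 1 of the 2 that rose. Of the 14 genes that did not pass, only 3 (Gmnn, Pold1 and Rfc3) kept both. Mcm7, Cdc45, Gins1, Gins2, Pcna, Rpa2, Tyms and Brca1 were called lower, and Mcm10 higher, under at least 1 alternative, while Mcm6 and Rfc5 changed sign without a call. Averaging a gene's probe sets, or testing each on its own, changed no call of the 42 genes. Only Tk1 and Pcna had a second probe set, so these alternatives could alter little. Leaving out 1 replicate at a time gave 21 to 26 genes lower and 2 to 3 higher, with the median change between -0.18 and -0.15, and over all genes 2668 to 3183 lower and 2128 to 2405 higher. The S-phase kinase genes that fell then numbered 2 to 4. With each array centred on its median, 1 replication gene was higher, the median change was -0.22, Mcm6 was at -0.0072, Rfc5 was at -0.049 and 5126 of all tested genes were lower. The change of Rfc5 (0.0034 with all arrays) ran from -0.0278 to 0.0300 over the left-out replicates, and was -0.0278 without KO188 replicate 2, -0.01 without WT replicate 1 and -0.0025 without WT replicate 2. The further replication factors that rose numbered 1 with quantile normalization, 2 with a trend in eBayes and 2 without the dimmer 50% of genes. The S-phase kinase genes that rose numbered 2 when probe sets of a gene were averaged. In that list only Cdkn1b, called higher already, and Fbxw7 had a second probe set. With its brightest probe set Fbxw7 changed by 0.07 and did not pass (limma adjusted p = 0.21). The cause was not tested for any of these. With genes tied within a group left out, an alternative chosen after seeing the data, 25 replication genes fell and 2 rose of 39.

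The replicate numbers are shared by the groups, but deviations of same-numbered arrays correlated at only -0.0280 to 0.0184, so the numbers were not taken as pairs. With the replicate number as a block, 21 replication genes fell and 2 rose, with a median change of -0.16. The genes no longer called were Cdc6, Pola2, Prim1, Lig1 and Dnmt1. With 3 arrays a group, no fall of a replication gene under 6.75% passed the test on the values as deposited.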

Other observations

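A second probe set with 1 symbol was given for Tk1 and for Pcna. That of Tk1 had 10.00, 10.04 and 9.86 in KO188 arrays and 10.44, 10.38 and 10.43 in WT arrays, a change of -0.45 (limma adjusted p = 0.00082 among all probe sets), close to the -0.47 of the probe set used. That of Pcna changed by -0.05 (limma adjusted p = 0.16 among all probe sets), against -0.04 for the probe set used. Signal from near-identical gene copies could not be separated from that of either gene.

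Other steps of nucleotide synthesis, chosen after their values were seen, included genes on both sides of the threshold. Prps1, which makes the activated ribose for purines and pyrimidines, fell by 0.39 (23.9% lower) and Ppat, the first committed step to purines, by 0.23 (14.8% lower). Pfas, Paics and Atic, later steps of the purine route, fell by 0.31, 0.23 and 0.15. Dck, which phosphorylates recycled deoxynucleosides, fell by 0.43 (25.8% lower). Each of these passed limma at an adjusted p of 0.05. Adsl, another purine step, changed by -0.05 (limma adjusted p = 0.27) and Dhodh, a pyrimidine step, by -0.13 (limma adjusted p = 0.094), and neither passed.

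The change of the 42 replication genes was nearly unrelated to their level, with Pearson's r = 0.0761 and Spearman's rho = 0.0967 across the 42 genes, which share the same 6 arrays and are not independent replicates.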
